A study of Mus musculus with 3 samples.

Results

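Replication-dependent histone genes are the genes named Hist1 to Hist4 in the mouse annotation, and all genes whose symbol begins with Hist1h, Hist2h, Hist3h or Hist4h were taken, which gave 70 of 55536 annotated genes. They comprised 6 linker histone H1 genes, 20 H2A, 19 H2B, 12 H3 and 13 H4 genes. The Hist1 cluster on chromosome 13 held 56 of them, Hist2 on chromosome 3 held 10, Hist3 on chromosome 11 held 3, and Hist4 on chromosome 6 held 1. The annotation typed 67 as protein-coding and 3 as pseudogenes (Hist1h2aj, Hist1h2al and Hist3h2bb-ps).

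The study measured RNA of the nuclear fraction of C57BL/6J mouse bone marrow-derived macrophages, which had been treated for 15 min with 100 ng/ml Lipid A, the membrane anchor of bacterial lipopolysaccharide that Toll-like receptor 4 recognises. Ribosomal RNA was depleted and total RNA was sequenced, so transcripts with and without a poly(A) tail could be captured. There was 1 group of 3 biological replicates and no untreated group, so no effect of Lipid A could be measured and no test between conditions was made. All 3 libraries carried the same donor label, and the labels do not say how many animals were used. The labels give a starting quantity of 1 µg RNA for replicates 1 and 3 and of 500 ng for replicate 2.

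Replication-dependent histone mRNAs code for the core histones and linker histones that package newly copied DNA. They are made mainly in S phase, have no introns in most cases, and end in a conserved stem-loop in place of a poly(A) tail. The stem-loop is bound by the stem-loop binding protein SLBP, and the transcript is cut just behind it with the help of the U7 snRNP. Some members can also be read through to a poly(A) site further down, as has been described in differentiated cells. Replacement histones such as H3.3 and H2A.Z come from other genes, and most carry poly(A) tails and are made throughout the cell cycle.

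The stem-loop was looked up in the annotated transcripts, because it is the feature that sets these mRNAs apart. A stem of 6 base pairs that opened with GG and closed with CC, around a loop of 4 bases, was sought past the coding sequence. It was found in transcripts of 46 of the 70 genes (65.7%). A search with 1 mismatch covered whole transcripts, coding sequence included, and gave 51 genes (72.9%). The added genes were all H2B genes. Those of Hist1h2bl and Hist1h2bn have 381 nt transcripts with 378 coding nt, so the 51 is no count of 3′ stem-loops. Among the 55380 other genes with transcript sequences, 169 (0.305%) held the stem-loop without mismatch anywhere. The following stretches from the GENCODE M21 transcripts show the members of each class that the results turn on, with the stem-loop in capitals and 7 flanking bases on each side in lower case.
Hist1h1c: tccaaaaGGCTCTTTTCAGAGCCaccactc
Hist2h2aa2: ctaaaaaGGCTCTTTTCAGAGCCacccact
Hist2h2ac: ccaaaaaGGCTCTTTTTAGAGCCaccaaat
Hist3h2a: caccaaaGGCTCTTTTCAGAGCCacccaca
Hist1h2bm: acacaaaGGCTCTTTTCAGAGCCactaagc
Hist1h3a: aaccaaaGGCTCTTTTCAGAGCCacacacg
Hist1h3c: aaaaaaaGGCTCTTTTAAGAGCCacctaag
Hist1h4n: aactaaaGGCCCTTTTCAGGGCCatccaat
Hist1h4b: tacaaaaGGTCCTTTTCAGGACCactcact
Hist2h4: ccctaacGGCCCTTTTTAGGGCCaaccaca
The capital letters lie on GRCm38 (mm10) at chr13:23739512-23739527 on the plus strand for Hist1h1c, at chr3:96239784-96239799 on the minus strand for Hist2h2aa2, at chr11:58955172-58955187 on the plus strand for Hist3h2a and at chr13:21831798-21831813 on the minus strand for Hist1h4n. Every H1, H2A, H2B and H3 gene with the stem-loop had the arms GGCTCT and AGAGCC, and every H4 gene with it had other arms. Of the 12 H4 genes, 10 had GGCCCT with AGGGCC, and 2 (Hist1h4b and Hist1h4j) had GGTCCT with AGGACC. The loop differed less by class: TTTC was the most frequent in H1, H2A, H2B, H3 and H4 alike.

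The annotated 3′ ends differed among members. In 28 genes the stem-loop lay within 3 to 185 nt of the annotated transcript end, and the median longest transcript was 522 nt. In 18 genes the annotated transcript ran on for 330 to 4884 nt past the stem-loop, and the median transcript was 1595 nt. Among these were Hist1h1c, Hist1h1d, Hist1h1e, Hist3h2a, Hist2h4 and Hist4h4. No stem-loop was annotated in 24 genes, with a median transcript of 402 nt. This does not show that the element is absent. Some of these transcripts, such as those of Hist1h3h (411 nt, 408 coding) and Hist1h4k (312 nt, 309 coding), are annotated only to the stop codon. A stem-loop behind it could not be found there. This last group also held the 2620 nt transcript of Hist2h2be.

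The members gave 5383, 4545 and 5725 expected counts in replicates 1, 2 and 3, out of 18516063, 17345644 and 20947006 counts on annotated genes. That was 290.7 CPM (counts scaled to the library total) in replicate 1 (95% Wilson interval 283.1 to 298.6), 262.0 in replicate 2 (254.5 to 269.8) and 273.3 in replicate 3 (266.3 to 280.5), or 275.3 ± 14.5 CPM (SD, n = 3). The intervals cover counting error only. A mean of at least 10 counts, the minimum used here for a measured gene, was reached by 55 of the 70 members (78.6%) and by 28.6% of all annotated genes. The summed level per transcript length was 469.6 TPM (transcripts scaled to a common total per library) in replicate 1, 277.0 in replicate 2 and 275.6 in replicate 3. By TPM in this table replicate 1 stood above the others, while by summed CPM the 3 libraries lay close together. The CPM sum holds opposite differences. Hist1 genes summed to 206.9, 119.0 and 157.1 CPM in replicates 1, 2 and 3, and Hist2 genes to 55.8, 52.4 and 48.0. Hist3h2a alone had 25.5, 86.9 and 65.5 CPM. A second deposited quantification gave the members 172.9, 196.6 and 38.99 TPM, so replicate 2 was highest and replicate 3 lowest there. The median measured gene had 3.27, 5.42 and 0.785 TPM in that quantification. After each library was put on its median measured gene of the first table, the members summed to 277.9, 195.8 and 187.5 TPM, with replicate 1 again the highest. That median was itself 5.25, 5.40 and 3.775 TPM in replicates 1, 2 and 3. These sums thus keep the TPM scale of the first table, which was lowest in replicate 3, and do not rank replicate 3 independently of it.

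**Figure D1:**
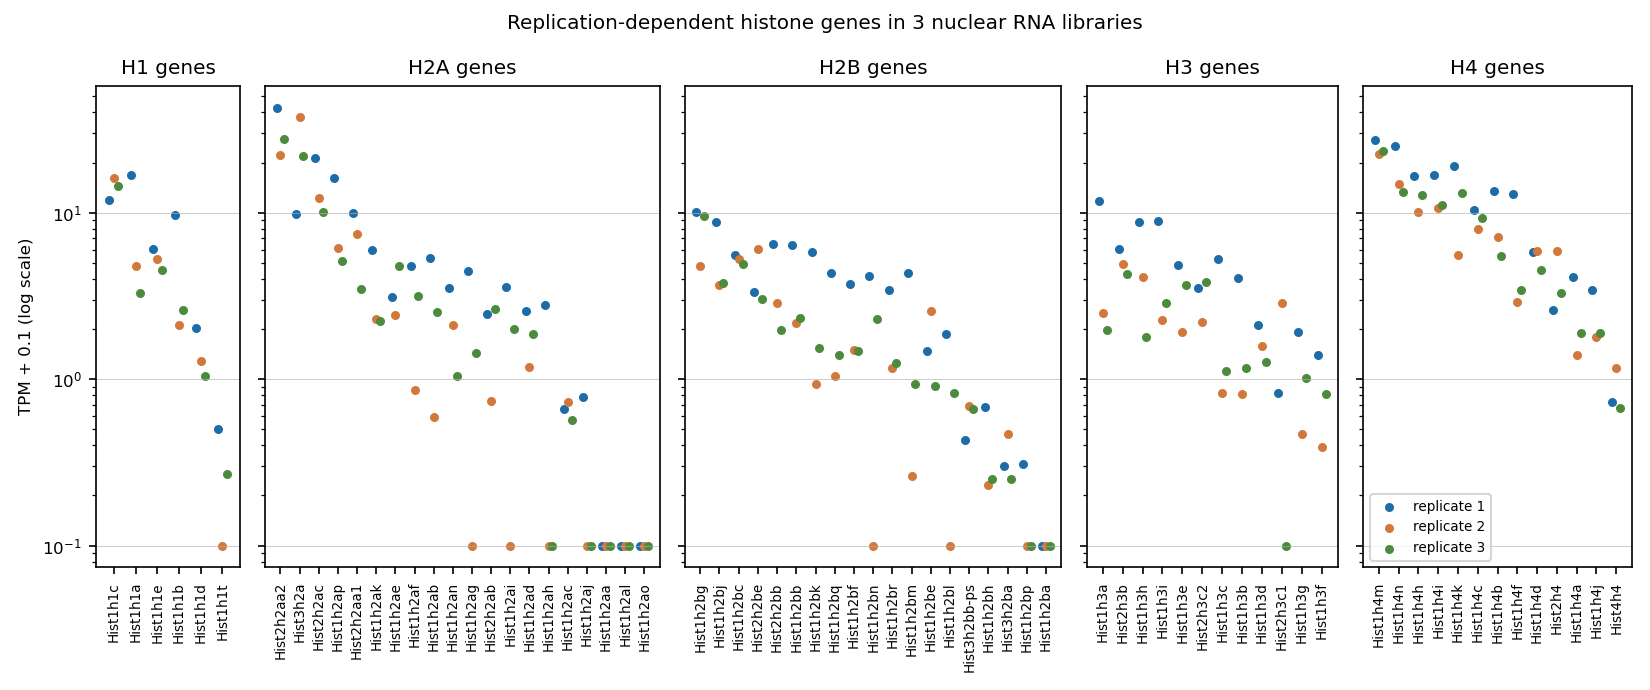
TPM + 0.1 on a log axis for each of the 70 replication-dependent histone genes in each of the 3 libraries, by class and ordered by mean TPM within a class. Levels within a class spanned from 0 TPM to 30.7 TPM for H2A, while all 13 H4 genes were measured, from 0.757 to 24.3 TPM.

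The median level of the 55 measured members was 5.71, 2.40 and 2.77 TPM in replicates 1, 2 and 3, against 5.25, 5.40 and 3.77 TPM for all 15876 measured genes. On the log2(TPM + 0.1) scale the members' median minus that of all measured genes was -0.48 ± 0.63 (SD, n = 3). It was 0.12 in replicate 1, -1.14 in replicate 2 and -0.43 in replicate 3, so the direction was not the same in every library. In every library the members lay below the replacement histone genes, of which 10 of 11 were measured: the median was 3.63 ± 1.81 TPM for the members and 13.4 ± 1.9 TPM for the replacement genes, and the difference of the medians was -1.91 ± 0.71 on the log2(TPM + 0.1) scale (SD, n = 3). Beside the 469.6, 277.0 and 275.6 TPM of all 70 members, H3f3b, a gene for the replacement histone H3.3, alone had 320.6, 248.3 and 307.3 TPM. The levels were uneven among members: the 5 highest made up 32.3% of the members' TPM and the 10 highest 50.4%.

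By class, the nucleosome core genes were not represented evenly. H4 genes summed to 157.0, 96.5 and 102.9 TPM and H2A genes to 138.2, 95.5 and 88.8 TPM. H2B genes summed to 69.6, 32.2 and 35.6 TPM, and H3 genes to 58.3, 23.6 and 22.6 TPM. The linker histone H1 genes summed to 46.5, 29.1 and 25.6 TPM. As shares of the members' TPM, H4 held 35.2% ± 2.0, H2A 32.0% ± 2.5, H2B 13.1% ± 1.6, H1 9.90% ± 0.62 and H3 9.72% ± 2.34 (SD, n = 3). The shares of H4 and H2A overlapped within their spread, as did those of H1 and H3, while H4 and H2A lay above H2B, H3 and H1 in each library. H2A over H2B was 1.99, 2.97 and 2.49 in summed TPM, and H3 over H4 was 0.371, 0.245 and 0.22. By expected counts, which are not divided by length, H2A held 34.9%, H1 21.9%, H4 20.9%, H2B 14.4% and H3 7.72%.

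**Figure D2:**
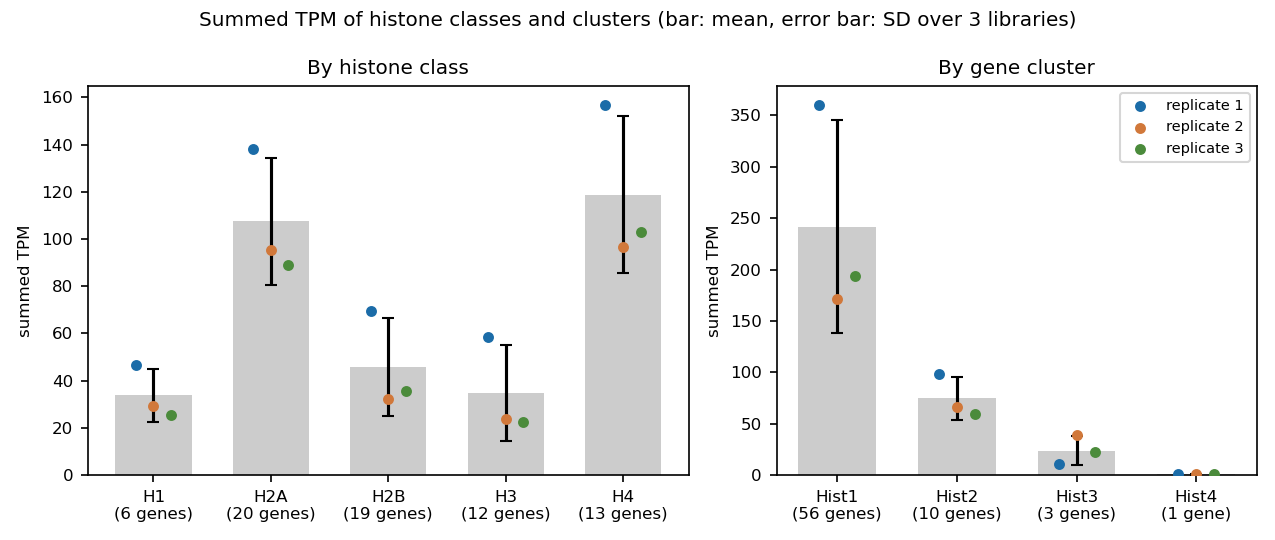
Summed TPM by histone class (left) and by gene cluster (right), with bars for the mean, error bars for the SD over 3 libraries and points for single libraries. H4 and H2A averaged 118.8 and 107.5 TPM, above H2B at 45.8, H3 at 34.9 and H1 at 33.8 TPM, and Hist1 held 241.6 of the members' 340.7 TPM.

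Among the linker histones, Hist1h1c was the highest, with 11.8, 16.1 and 14.4 TPM in replicates 1, 2 and 3. Hist1h1a followed with 16.8, 4.71 and 3.19 TPM, and Hist1h1e, whose exons overlap those of Hist1h2be on the same strand, with 5.95, 5.14 and 4.40 TPM. Hist1h1a was highest in replicate 1, whereas Hist1h1c was lowest there. Hist1h1b had 9.56, 2.02 and 2.51 TPM. Hist1h1d had 351.2, 179.1 and 221.4 expected counts, but 1.93, 1.19 and 0.95 TPM, since its annotated transcript is 7425 nt long. The testis-specific linker histone Hist1h1t had 7, 0 and 4 counts.

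Among H2A genes, Hist2h2aa2 had 42.5, 22.2 and 27.5 TPM, the highest mean of all members (30.7 ± 10.5, SD, n = 3). Its copy Hist2h2aa1 had 9.87, 7.37 and 3.39 TPM. Neither holds a stretch of 31 bases that is absent from all other genes, so how reads were divided between them is uncertain, and their summed expected counts were 414.0, 198.4 and 346.1. Hist3h2a had 9.71, 37.6 and 21.7 TPM, with 472.3, 1507 and 1371 counts. It was the only measured H2A gene lowest in replicate 1 by at least 2-fold, while most other members were highest there. Its exons overlap those of Trim17 on the same strand, and Trim17 had 163.7, 252.0 and 199.5 counts. Hist2h2ac had 21.2, 12.1 and 10.04 TPM. Hist2h2ab had 2.35, 0.64 and 2.52 TPM, with 13, 3 and 21 counts, and was lowest in replicate 2. No read was assigned to Hist1h2aa, Hist1h2al or Hist1h2ao, and 0 counts allow up to 0.162, 0.173 and 0.143 CPM in replicates 1, 2 and 3. The second quantification, which divides reads among transcripts by another method, gave 7.32, 15.3 and 0 counts for Hist1h2ao, so its level is uncertain.

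H2B genes were lower by TPM. Hist1h2bg had 9.98, 4.69 and 9.41 TPM, Hist1h2bj 8.65, 3.59 and 3.67 TPM, and Hist1h2bc 5.43, 5.18 and 4.83 TPM. The last varied least of these, and its annotated transcripts hold no stem-loop. Hist2h2be, a long-transcript member of the Hist2 cluster, had 3.25, 5.96 and 2.93 TPM and was highest in replicate 2. By expected counts, which are not divided by length, it had 197, 298 and 230, the highest mean of the H2B genes (241.7). Hist2h2bb, in the same cluster, had 6.36, 2.77 and 1.88 TPM, and none of its 31-base stretches is absent from all other genes. The testis-specific Hist1h2ba, which forms a divergent pair with Hist1h2aa, had 0 counts in every library.

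Among H3 genes, Hist1h3a had 11.7, 2.40 and 1.86 TPM, Hist2h3b 5.95, 4.81 and 4.16 TPM and Hist1h3h 8.71, 3.98 and 1.68 TPM. The 2 Hist1 genes were highest in replicate 1 by a wide margin, and Hist2h3b differed less. Hist1h3f was the lowest, with 1.30, 0.29 and 0.71 TPM. Hist2h3c1 had 29.1, 92.8 and 0.01 expected counts, the largest log2 deviation of all members in either direction, while its copy Hist2h3c2 had 69.2, 35.1 and 99.6. Summed over both copies the counts were 98.3, 127.9 and 99.6, a narrower range than for either alone, and Hist2h3c1 by itself is uncertain. It and Hist2h2aa1 also overlap Gm20634 on the same strand, which had 416.6, 754.0 and 879.6 counts.

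H4 genes code for the same protein in most copies and all 13 were measured. Hist1h4m led with 27.0, 22.5 and 23.4 TPM, Hist1h4n had 24.98, 14.7 and 13.1 TPM, and Hist1h4h had 16.4, 9.99 and 12.7 TPM. Only 8.33% of the 31-base stretches of Hist1h4m and 12.5% of those of Hist1h4n occur in no other gene, so the order of these genes depends on how reads were divided. Their summed TPM was 52.0, 37.2 and 36.6. Hist4h4, the single gene of its cluster, was the lowest by TPM with 0.63, 1.07 and 0.57, and its annotated transcript is 2863 nt long. By expected counts, which are not divided by length, it had 42, 59 and 49, above the 31.6, 8.61 and 20.2 of Hist1h4a. Hist1h4i had the highest mean count of the H4 genes (171.7). Hist2h4 had 2.5, 5.76 and 3.20 TPM. Hist4h4 and Hist2h4 were highest in replicate 2, unlike Hist1h4n and Hist1h4h.

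Position split the members as well. Hist1 held 69.5% ± 7.6 of the members' TPM, Hist2 22.1% ± 1.7, Hist3 8.08% ± 5.87 and Hist4 0.242% ± 0.13 (SD, n = 3). By expected counts, which are not divided by length, Hist1 held 58.0% ± 12.9, Hist3 22.1% ± 12.3, Hist2 18.9% ± 1.2 and Hist4 0.978% ± 0.28, so Hist3 and Hist2 changed places. Hist3 held 2.18%, 13.9% and 8.14% of TPM in replicates 1, 2 and 3, and its mean share was 5.16% without replicate 2. Hist3 was carried by Hist3h2a, since Hist3h2ba and Hist3h2bb-ps had at most 5 counts in a library. All 10 Hist2 genes were measured. The 56 Hist1 genes fell into stretches separated by gaps of over 100000 bases: a stretch of 19 genes at chr13:21715763-21837530 held 27.4% ± 4.1 of the members' TPM, 5 genes at chr13:22035164-22043676 held 6.62% ± 1.38, and 29 genes at chr13:23531050-23764406 held 35.5% ± 2.4. Of the last stretch 27 genes were measured, of the first 12. The remaining 3 genes, Hist1h2aa and Hist1h2ba at chr13:23933773-23934851 and Hist1h2al at chr13:51202727-51203065, had no counts. There were 14 divergent pairs of an H2A and an H2B gene, with starts 173 to 306 nt apart. The H2A gene had the higher mean TPM in 6 pairs and the H2B gene in 7, and in the pair of Hist1h2aa and Hist1h2ba both were at 0. The lower partners Hist1h2aj (of Hist1h2bm) and Hist3h2bb-ps (of Hist3h2a) are pseudogenes. By mean expected counts the order reversed for Hist2h2ac and Hist2h2be (113.7 and 241.7). It also reversed for Hist1h2ad and Hist1h2bf (17.17 and 13.62).

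Promoters from RefSeq (GRCm38.p6, 250 bases before to 50 after each start) were found for 62 members. The motifs searched on both strands were the TATA box TATAAA, the CCAAT box CCAAT, the octamer ATTTGCAT and the H1 box AAACACA. Each was counted on its own, so matches could overlap. A match could lie anywhere in the window, so TATAAA was not required to sit at the usual place of a TATA box. TATAAA was in 35 of 62 members' promoters (56.5%), against 13.6% of all 32851 promoters. CCAAT was in 53 (85.5%), against 37.4% of all promoters, the octamer in 13, against 1.74%, and the H1 box in 9 (14.5%), against 7.18%. All 6 H1, 18 H2A, 16 H2B and 10 H3 promoters held CCAAT, and 3 of 12 H4 promoters did. The octamer was in 7 H2A and 6 H2B promoters and in no H1, H3 or H4 promoter. The windows of divergent pairs overlap, and 3 of the 10 octamer positions lay in the window of an H2A and of an H2B gene, so 3 H2A and 3 H2B promoters shared a site. In the same way 35 of 109 CCAAT positions and 6 of 35 TATAAA positions were counted in both classes. The H1 box was in 5 of 6 H1 promoters, 2 H2A and 2 H2B promoters. A match is a description of the letters and no sign of binding. The promoters of an H1, an H2A and an H4 gene show the class difference, with matches in capitals.
Hist1h1c: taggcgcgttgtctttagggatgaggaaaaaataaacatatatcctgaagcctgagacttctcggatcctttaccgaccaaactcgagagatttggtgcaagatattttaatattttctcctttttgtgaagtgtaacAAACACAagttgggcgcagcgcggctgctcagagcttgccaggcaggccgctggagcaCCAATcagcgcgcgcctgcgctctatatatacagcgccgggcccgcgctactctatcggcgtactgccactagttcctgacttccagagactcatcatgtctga
Hist2h2ac: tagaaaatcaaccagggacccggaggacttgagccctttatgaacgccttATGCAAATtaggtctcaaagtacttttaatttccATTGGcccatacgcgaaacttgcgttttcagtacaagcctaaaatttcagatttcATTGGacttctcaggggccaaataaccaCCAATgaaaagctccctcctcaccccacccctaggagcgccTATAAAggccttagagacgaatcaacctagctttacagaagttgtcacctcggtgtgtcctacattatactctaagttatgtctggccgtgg
Hist1h4m: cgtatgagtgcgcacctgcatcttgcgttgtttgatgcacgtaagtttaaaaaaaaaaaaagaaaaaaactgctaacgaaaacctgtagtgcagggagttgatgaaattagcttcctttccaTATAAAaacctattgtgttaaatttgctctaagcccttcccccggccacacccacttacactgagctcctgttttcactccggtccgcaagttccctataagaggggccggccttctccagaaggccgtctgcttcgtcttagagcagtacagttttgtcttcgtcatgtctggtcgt
They lie at chr13:23738557-23738856 on the plus strand, chr3:96220831-96221130 on the minus strand and chr13:21811496-21811795 on the plus strand.

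**Figure D3:**
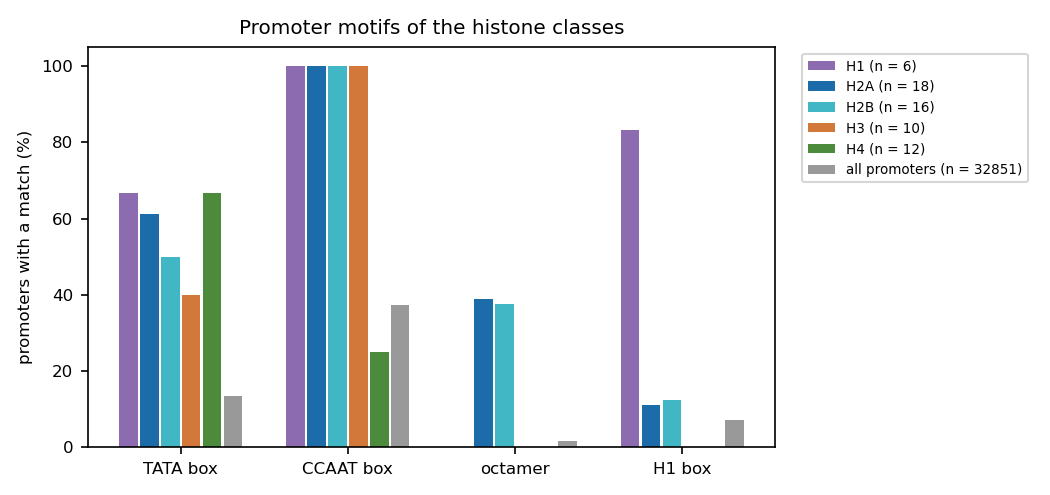
Share of promoters with at least 1 match to each motif on either strand, by histone class and for all 32851 promoters. CCAAT was in 100.0% of H1, H2A, H2B and H3 promoters and in 3 of 12 H4 promoters, and the octamer was in 38.9% of H2A and 37.5% of H2B promoters.

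The libraries were then set against each other. Each value below is a gene's log2 CPM in a library minus the mean of the other 2, after scaling with TMM factors of 1.067, 1.018 and 0.9211, and a gene counts as above or below when it differs at least 2-fold from both others. In replicate 1 the measured members had a median deviation of 0.72 (1.64-fold), against 0.02 over all measured genes, and 32 of 55 members (58.2%) were highest there, against 36.6% of all measured genes. Of the 55 members, 12 (21.8%) exceeded each of the others by 2-fold or more, against 4.86% of all measured genes. In replicate 2 the median deviation was -0.91 (0.533-fold) and 44 of 55 members were lowest, against 32.4% of all measured genes. At least 2-fold below both others in replicate 2 were 11 members (20.0%), against 2.22% of all measured genes. In replicate 3 the median was 0.11 (1.08-fold), and it was -0.38 when replicate 2 was left out and 0.56 when replicate 1 was. Against replicate 3 alone the median in replicate 1 was 0.38, and against replicate 2 alone it was 1.02. The median coefficient of biological variation, edgeR's estimate of spread between replicates beyond counting, was 0.416 for the members and 0.294 for all measured genes. All measured genes were not matched to the members for counts, and genes with few counts vary more between libraries. The part of low counts in these differences from the background was not tested. Single members passed in the other directions: 1 below in replicate 1 (background 3.22%), 1 above in replicate 2 (0.857%), 1 above in replicate 3 (1.55%) and 1 below in replicate 3 (1.39%). At a fold of 1.5, 21 members were above in replicate 1 (background 10.4%) and 2 below (8.46%). In replicate 2, 3 were above (3.99%) and 24 below (6.25%), and in replicate 3, 2 were above (4.89%) and 1 below (5.74%). The 3 members with the largest deviations in either direction were Hist2h3c1, Hist1h2bm and Hist1h2ag. Hist1h2bm had 32, 1 and 9 counts, and Hist1h2ag had 28.7, 0 and 12.8 counts. With 3 libraries of 1 group the smallest two-sided exact sign-flip p would be 0.25, so none is given.

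Among members with mostly unique sequence the deviation was smaller. In the 22 measured members in which at least 50% of 31-base stretches occur in no other gene, the median in replicate 1 was 1.10-fold and in replicate 2 0.748-fold, against 2.01-fold and 0.479-fold in the other 33. The group with shared sequence held 29.2% of the members' counts. When each library's TPM in the second table was put on the median measured gene, 50 of 55 members were lower there than in the first. Their median log2 difference was -0.64. The share of all measured genes that were lower is not given here, so this count has no background. The tables differed at least 2-fold for 4 members, all lower in the second, against 10.05% of all measured genes, and at least 1.5-fold for 32 members, against 28.0%.

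The pattern moved with the annotated 3′ form, a split chosen after the values had been seen. Of all measured genes, 36.6% were highest in replicate 1 and 32.4% lowest in replicate 2. In the 23 measured members with the stem-loop near the annotated end, the median in replicate 1 was 2.02-fold and 18 (78.3%) were highest there. In replicate 2 it was 0.453-fold and 22 (95.7%) were lowest. In the 18 members whose annotated end lay far past the stem-loop the median was 1.11-fold in replicate 1 and 0.795-fold in replicate 2. Of these, 7 (38.9%) were highest in replicate 1, near the share of all measured genes, and 11 (61.1%) lowest in replicate 2. The 14 members without an annotated stem-loop were at 1.85-fold and 0.553-fold, but were not alike: 10 with transcripts of at most 1000 nt were at 2.04-fold and 0.447-fold, and 4 with longer ones at 0.827-fold and 1.12-fold. Within H3 the near-end members were at 4.29-fold in replicate 1 (3 genes) and the far-end members at 1.60-fold (5 genes). Within H4 these were 1.60-fold (6 genes) and 1.04-fold (6 genes). The difference of the medians, near form minus far form, was 0.87 in replicate 1, -0.81 in replicate 2 and -0.08 in replicate 3 on the log2 scale, with no test. Restricted to members with mostly unique sequence it was 0.60 in replicate 1 and -0.84 in replicate 2. The near-end members left were Hist1h2ae, Hist1h2bb, Hist1h4a and Hist1h4h, with deviations of -0.32, 1.24, 1.04 and 0.27 in replicate 1. At most 52.3% of their 31-base stretches occur in no other gene, against at least 64.4% in the far-end members left. The forms thus still differed in shared sequence, so the restriction does not separate 3′ form from shared sequence.

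**Figure D4:**
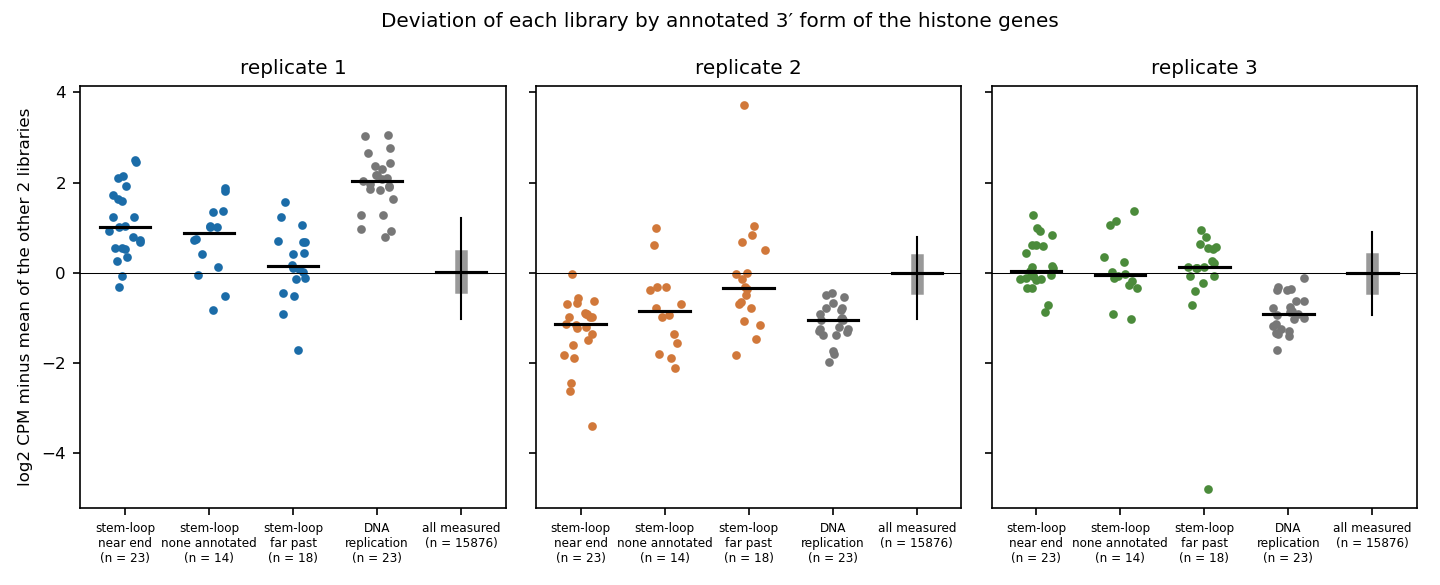
Deviation of each library (log2 CPM minus the mean of the other 2) for the measured histone genes by annotated 3′ form, for 23 DNA replication genes and for all 15876 measured genes, where bars show medians, the thick line the middle 50% and the thin line the middle 90%. In replicate 1 near-end members had a median of 1.012 and far-end members 0.14, and the replication genes 2.04.

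Other gene lists were set beside the members. All 23 genes of a DNA replication list, such as Mcm5 of the replicative helicase, Rrm2 of ribonucleotide reductase and Cdc6 of origin licensing, were highest in replicate 1, with a median of 4.12-fold, and 20 passed 2-fold above each of the others. In replicate 2 their median was 0.488-fold and in replicate 3 0.531-fold, and for the members it was 0.533-fold and 1.08-fold. The difference between these lists was not tested, and the members' median in replicate 3 was -0.38 on the log2 scale against replicate 1 alone. Rrm2 had 11.5, 1.58 and 1.11 TPM. Of 13 histone chaperone genes, which carry histones to and from DNA, 11 were highest in replicate 1, against 36.6% of all measured genes, and 3 passed 2-fold there: Asf1b (4.61-fold), Chaf1a (4.25-fold) and Chaf1b (2.92-fold). Of 20 genes listed for histone transcription, 3′ processing and decay, 18 were found under these symbols, 10 were highest in replicate 1 and none passed 2-fold in any library. Slbp, which binds the stem-loop, had 20.9, 9.84 and 8.57 TPM (1.95-fold in replicate 1), Npat, which activates histone transcription, 4.63, 4.28 and 2.61 TPM, and Lsm11, a subunit of the U7 snRNP, 1.55, 0.73 and 0.80 TPM. Replacement histones were at 0.872-fold in replicate 1 and 7 of 10 were highest in replicate 3, against 31.9% of all measured genes. Cenpa, the histone H3 of centromeres, had 16.6, 114.0 and 76.2 TPM, and H2afx 5.67, 2.60 and 2.54 TPM. Both are on the replacement list, which was not uniform: in replicate 1 Cenpa lay at 0.151-fold and H2afx at 1.95-fold. The DNA replication genes and most chaperone genes were highest in replicate 1, Cenpa was lowest there, and the part of these levels in the members' values was not tested. In bulk RNA, fewer cells in S phase and less RNA per cell cannot be told apart, and the starting quantity of replicate 2 cannot be told apart from that replicate.

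The label was checked against marker genes. All 6 macrophage markers were measured, with summed levels of 4989, 5957 and 7013 CPM, and Lyz2 and Csf1r had 1593 and 316.4 TPM in replicate 1. Of 5 T cell markers only Cd4 was measured and Cd3e was at 0 in every library. The summed T cell level was 39.9 to 101.8 CPM, nearly all from Cd4. Of 6 neutrophil and progenitor markers only Ngp was measured, with a summed level of 1.13 to 3.11 CPM, and Ly6g was at 0. None of the 4 B cell and 4 erythroid markers was measured, and their sums were at most 0.594 and 0.21 CPM. Pairs of libraries differed by more than sampling noise, with a chi-square of 90.2 to 154.0 per degree of freedom over measured genes. Libraries prepared separately from 1 source can also differ by more than sampling noise, so this does not show independent samples. Each was counted as a sample of its own by its replicate label.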

How the data were processed

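Expected counts and TPM per gene were deposited by the authors for each library, from reads on mm10 with the GENCODE M21 annotation, per the file headers and deposited notes. No source used here gives the program versions or says whether counting used strand. A second deposited table of estimated counts and TPM per transcript was summed per gene. Without a strand setting, reads of overlapping and antisense genes cannot be told apart, which touches 26 members.

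Members and lists were chosen with earlier results of these data known. Named genes are the 3 highest and the lowest of each class, the members of Hist2 to Hist4, those with the largest deviations, those at 0 counts and the testis-specific ones. Hist1h1b, Hist1h1d and members shown as copies were named after their values were seen. Expected counts were rounded. Log2 CPM came from edgeR 4.0.16 (R 4.3.3) with TMM factors and a prior count of 2, for genes that averaged 10 counts or more. TPM were set on the log2(TPM + 0.1) scale, which understates changes of low genes. The deviation step was tested on simulated data, with less spread between libraries than these data have. Only genes with higher counts than many members were changed there. The simulation therefore does not measure the error rate for members with few counts. Shared sequence was measured over 31-base stretches of the annotated transcripts. The H1 box and the split by annotated 3′ form were added after the values had been seen. Between replicates, p-values were not computed. Alternatives were DESeq2 1.42.0 size factors, other filters, pseudocounts and folds, the second table, and leaving out each replicate. Depth was 17345644 to 20947006 counts per library. Amino acid sequences were not used here.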

Additional observations from a re-analysis of the deposited data

How the results depend on the processing

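With the second table the members summed to 246 CPM, against 275, H1 held 8.93% and H2B 14.8% of the members' TPM. By expected counts in place of TPM, H1 held 21.9%, H2A 34.9% and H4 20.9%. The members' median was below that of all measured genes with 8 settings, but 4.70 above on the log2 scale with no filter, where most genes are at 0. Leaving out replicate 2 turned the median deviation in replicate 3 to -0.38, and leaving out replicate 1 gave 0.559 (0.105 with all libraries). At a fold of 1.5, 21 members were above and 2 below in replicate 1, 3 above and 24 below in replicate 2, and 2 above in replicate 3. With the second table, 0 were above and 0 below in replicate 3. Shares of all measured genes at that fold were 10.4%, 8.46%, 3.99%, 6.25% and 4.89%. Hist3 held 22.1%, Hist2 18.9%, Hist1 58.0% and Hist4 0.978% of the members' expected counts. Between the tables, 0 members differed 2-fold at a pseudocount of 1, 32 at a fold of 1.5, and 2 to 9 with a replicate left out. Among members with mostly unique sequence, the difference between near and far forms in replicate 3 was 0.26 in place of -0.08. The near form then held only Hist1h2ae, Hist1h2bb, Hist1h4a and Hist1h4h. Across all 130 alternatives, 104 stayed on the same side or within the spread, 23 moved and 3 reversed. The cause was not tested. No paired analysis was possible because there is 1 group. Low counts limit single members: 15 had a mean under 10.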
